A study of Mus musculus with 6 samples.

Results

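Transcription factor families that pattern the embryo and maintain endothelium were examined in lymphatic endothelial cells of the mouse meninges. Members were taken by gene symbol from 15 families (Sox, forkhead, Kruppel-like, Gata, nuclear receptors with Nr symbols, ETS, Hox, Tbx, Nfat, Stat, Irf, Mef2, Tead, Maf and Meis), and 53 of the 4233 genes in the table matched. They comprised 10 ETS genes, 9 forkhead genes, 9 Hox, Tbx and Meis genes, 5 Sox genes, 5 nuclear receptors, 5 Mef2, Tead and Maf genes, 4 Kruppel-like genes, 3 Nfat genes, 2 Stat and Irf genes and 1 Gata gene. The symbol also brought in Irf2bp2, a coregulator that binds interferon regulatory factors and is not one itself, and Hoxaas3, a noncoding RNA antisense to the Hoxa cluster. The other 52 are protein-coding genes.

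RNA was sequenced from 3 libraries of 5xFAD mice and 3 libraries of wild-type littermates (WT). The 5xFAD mice were hemizygous for transgenes that the neuronal Thy1 promoter drives and that lead to amyloid deposits in brain, and the WT mice carried none. All were males aged 6 months on the C57BL/6J strain, and no group had a treatment. Each library was made from the meninges of 10 mice, sorted for live single cells with CD31 and podoplanin (Pdpn) on their surface and without CD45, and its RNA was linearly amplified. The transgenes were not analysed here, so the reads do not check the genotype of a library.

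Transcription factors bind short DNA motifs and switch target genes on or off, and related factors of 1 family share a DNA-binding domain and often a motif. In lymphatic endothelium, Sox18 with Nr2f2 turns on Prox1 in embryonic veins, which starts the lymphatic programme, and Nfatc1 and Foxc1 act with it in the formation of lymphatic valves. ETS factors such as Erg and Fli1 keep endothelial genes active in all vessel types, and Klf4 responds to flow.

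Values are normalised counts, that is reads per gene divided by 1 factor per library. The libraries held 7960827 to 13255050 reads in the listed genes for 5xFAD and 10263689 to 11934686 for WT, a sum over this table and so no measure of sequencing depth. All 12 lymphatic endothelial markers had reads in every library, and their summed level was 244930 to 374554 in 5xFAD and 262613 to 304102 in WT. Of 8 pan-endothelial markers 7 were tested and none passed, with 6 log2 fold changes negative and 1 positive (median -0.45). Their summed level was 39733 to 57578 in 5xFAD and 50182 to 78354 in WT (exact permutation p = 0.3, two-sided). Of the markers of other cells, 7 of 10 for blood endothelium, 5 of 10 for fibroblasts, 3 of 8 for mural cells, 1 of 10 for leukocytes and 1 of 8 for neural cells were tested, and none of these passed. These counts are no measure of level. The fibroblast markers summed to 23401 to 27185 in 5xFAD and 22641 to 40661 in WT. The leukocyte marker Mrc1 was at 8105 to 11310 in 5xFAD and 8243 to 11829 in WT. Reads of a member therefore cannot be tied to lymphatic endothelial cells alone. Listed genes without a read numbered 87, 86 and 147 in the 3 5xFAD libraries, against 26, 25 and 42 in the 3 WT libraries. The SD of log2(reads + 1) stayed under 2 within each genotype for all listed genes, although it exceeded 2 over all 6 libraries for 328 of them, so genes with more scatter within a genotype are not analysed here. The SEs are taken from the spread of the listed genes, so the SEs, the p-values and the shares of called genes all depend on that limit. In bulk samples, fewer cells of a type and less RNA per cell cannot be told apart.

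Among the 52 members tested, 3 fell in 5xFAD, namely Nr4a3, Nr4a2 and Sox17, and none rose (limma with Benjamini-Hochberg adjustment over 4152 genes, adjusted p under 0.05). The p-values rest on the spread between pools of mice typical of genes at that level, and not on each gene's own spread. The 3 make up 5.77% of the members, and 4.48% of all tested genes were called lower. Calls for higher genes covered 1.88% of all tested genes. At an unadjusted p under 0.05, 3 members were higher, 5.77% of members against 6.7% of all genes tested. At that threshold 5 were lower, 9.62% of members against 9.61% of all genes tested. On recovered reads DESeq2 also called 0 members higher, with 2 at an unadjusted p under 0.05, whereas edgeR called 1, Maf. DESeq2 gave no adjusted p for Etv1 (log2 fold change 3.13 there), which edgeR left just outside (3.06; edgeR adjusted p = 0.0517). The median log2 fold change of the members was -0.10, against -0.02 for all genes tested, and 25 were above 0 and 27 below. Both shares of called members were near those of all genes.

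The 5xFAD and WT libraries did not overlap for 8 tested members. The 4 members with all 5xFAD libraries below all WT libraries were the 3 called genes and Etv5, and over all genes tested this share was 10.1%. The 4 members with all 5xFAD libraries above were Maf, Tead1, Etv1 and Klf9, and the share over all genes was 7.97%. Meis1, a homeodomain partner of Hox proteins and the 1 member under the filter on low values (a mean of at least 10), was at 1.66, 2.43 and 0 in the 5xFAD libraries and at 6.57, 16.7 and 8.85 in the WT libraries. It had at most 18 reads in any library and was not tested.

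**Figure D1:**
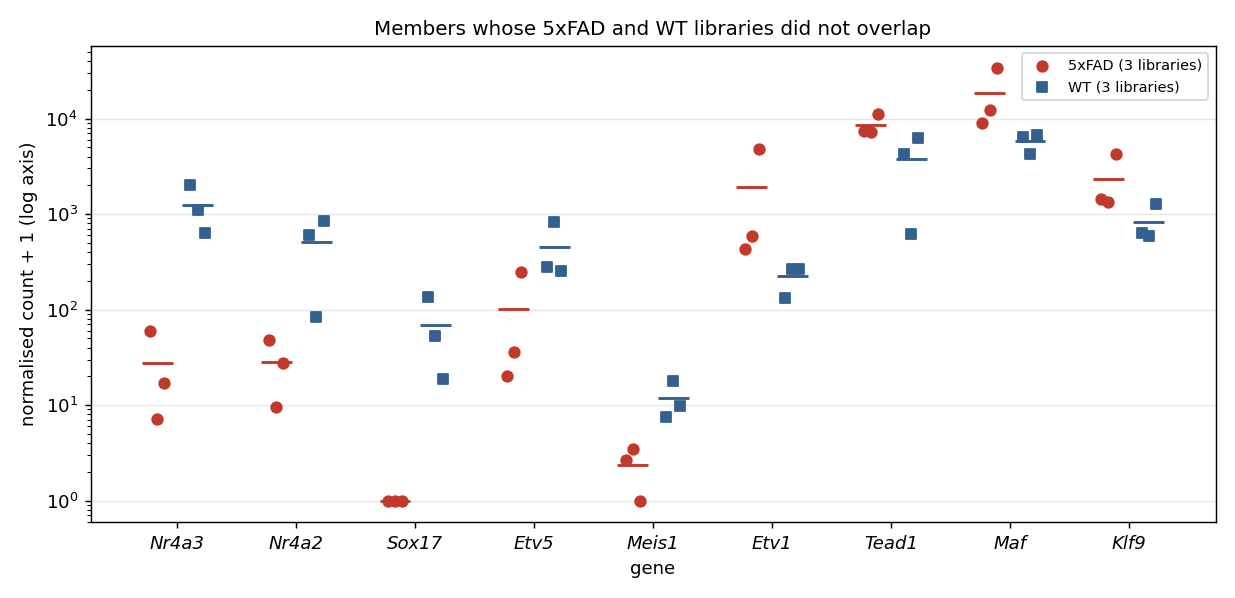
Normalised count + 1 (log axis) of the 9 members whose groups did not overlap, with 3 5xFAD libraries (circles) left of 3 WT libraries (squares) for each gene and a bar at each group's mean. Sox17 sits at 0 counts in all 3 5xFAD libraries, and Etv1 and Maf have 1 5xFAD library far above the other two.

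Nr4a1 was not among the listed genes, and both Nr4a receptors that were, Nr4a2 and Nr4a3, fell in 5xFAD. They are orphan nuclear receptors, which work without a known natural ligand and are switched on within minutes to hours of many signals as immediate early genes. Nr4a3 (chromosome 4, 48045153 to 48086447, GRCm38) was at 58.1, 6.08 and 15.9 in the 5xFAD libraries, against 1995, 1099 and 638 in the WT libraries. Every 5xFAD library was more than an order of magnitude under the lowest WT library. Its mean was 26.7 ± 27.6 in 5xFAD and 1244 ± 690.3 in WT (SD, n = 3 each), 46.6-fold lower, with a log2 fold change of -5.87 (SE 1.06; limma adjusted p = 2.49e-06).

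Nr4a2 (chromosome 2, 57106830 to 57124003) was at 46.4, 8.51 and 26.5 in the 5xFAD libraries, against 606, 82.8 and 838 in the WT libraries. The groups did not overlap, although WT 2 was far under the other WT libraries and nearest to 5xFAD 1. Its mean was 27.2 ± 19.0 in 5xFAD and 509 ± 387 in WT, 18.7-fold lower, with a log2 fold change of -3.91 (SE 1.07; limma adjusted p = 0.00631). The Nr4a2 call was lost without 5xFAD 2 (-3.27; limma adjusted p = 0.0725), without WT 1 (-3.52; 0.0633) or without WT 3 (-3.28; 0.0964), and the log2 fold change was -4.94 without WT 2. Nr4a3 kept its call with each library left out in turn and was at -6.68 without 5xFAD 1 and -5.15 without 5xFAD 2.

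The 2 promoters are shown because these members fell together. They run from 250 bases before to 50 bases after the start of the gene (RefSeq, GRCm38.p6), 5′ to 3′ on the strand of the gene. For Nr4a3 the RefSeq start lies downstream of the GENCODE start given above, so the window reaches further into the GENCODE gene. Capitals mark TGACG and its reverse complement CGTCA, the half-site of the cAMP response element, to which CREB binds.
Nr4a2, chr2:57123954-57124253, minus strand: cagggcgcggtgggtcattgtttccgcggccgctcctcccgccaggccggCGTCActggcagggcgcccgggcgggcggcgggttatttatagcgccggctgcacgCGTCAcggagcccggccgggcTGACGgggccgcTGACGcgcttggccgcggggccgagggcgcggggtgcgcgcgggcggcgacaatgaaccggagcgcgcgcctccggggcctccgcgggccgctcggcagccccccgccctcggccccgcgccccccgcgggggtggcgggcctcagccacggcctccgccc
Nr4a3, chr4:48045055-48045354, plus strand: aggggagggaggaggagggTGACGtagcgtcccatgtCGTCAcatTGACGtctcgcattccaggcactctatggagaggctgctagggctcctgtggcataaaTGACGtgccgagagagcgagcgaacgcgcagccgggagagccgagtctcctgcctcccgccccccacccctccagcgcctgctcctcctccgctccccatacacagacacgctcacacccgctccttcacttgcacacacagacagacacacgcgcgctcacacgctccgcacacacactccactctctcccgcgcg

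Each of the 2 promoters held 4 copies of the half-site, counted on both strands. Of the 32851 promoters of this length in the table, 20.8% held at least 1 copy and 0.231% held 4 or more. Among the 42 members with a promoter there, 20 held at least 1 copy, and Nr4a2 and Nr4a3 were the 2 with 4 or more. Members were counted per gene, by the promoter with the most copies. These counts are therefore not comparable with the shares of single promoters. This half-site was the only motif searched, and the cut of 4 is the count of the 2 promoters themselves. Both were picked because their genes fell, so the share of 0.231% is a description and carries no test. A match of letters is a description and not a binding site.

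Other immediate early genes were measured beside them. Of 20 on the list, 3 were tested and none passed. The rest are not among the listed genes, so their levels are unknown here and the 3 do not stand for the class. Egr1, a zinc finger factor, had a log2 fold change of -0.28, the phosphatase gene Dusp1 of 1.05 and the antiproliferative gene Btg2 of 2.42 (limma adjusted p 0.903, 0.468 and 0.117). Btg2 was just outside with DESeq2 (2.45; DESeq2 adjusted p = 0.0502) and without 5xFAD 2 (3.12; limma adjusted p = 0.0502). Without 5xFAD 3 it was at 1.74 (limma adjusted p = 0.488).

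The remaining Nr members did not pass. Nr2f2, which specifies veins and lymphatics, was at 2677, 2075 and 4399 in the 5xFAD libraries and at 3351, 1311 and 669 in the WT libraries. The groups overlapped, and the log2 fold change was 1.02 (95% interval -0.62 to 2.65), 1.63 without WT 1 and 0.47 without WT 3. Nr3c1, the glucocorticoid receptor, averaged 1647 ± 557 in 5xFAD and 3099 ± 1532 in WT (SD, n = 3; log2 fold change -0.84, 95% interval -2.46 to 0.78). Nr1d2, a repressor in the circadian clock, was at 415, 2526 and 296 in the 5xFAD libraries and at 321, 2561 and 420.2 in the WT libraries, so that 1 library of each group, 5xFAD 2 and WT 2, held several times the level of the others.

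Nuclear receptors with other symbols lie outside the 53 members, and 5 of 23 on that list were tested. Pparg, which directs fat cell genes and lipid handling, fell. It was at 4.15, 12.2 and 0 in the 5xFAD libraries and at 43.6, 166 and 163 in the WT libraries, with no overlap (log2 fold change -4.71, SE 1.06; limma adjusted p = 0.000336). With 1 library left out it ranged from -5.56 (without 5xFAD 2) to -3.70 (without 5xFAD 3), it was at -5.34 without WT 1, and its call held each time. The other 4 did not pass, and the median log2 fold change of the 5 was -1.27. Of 18 nuclear receptor coregulators 8 were tested and none passed, with a median of 0.18.

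**Figure D2:**
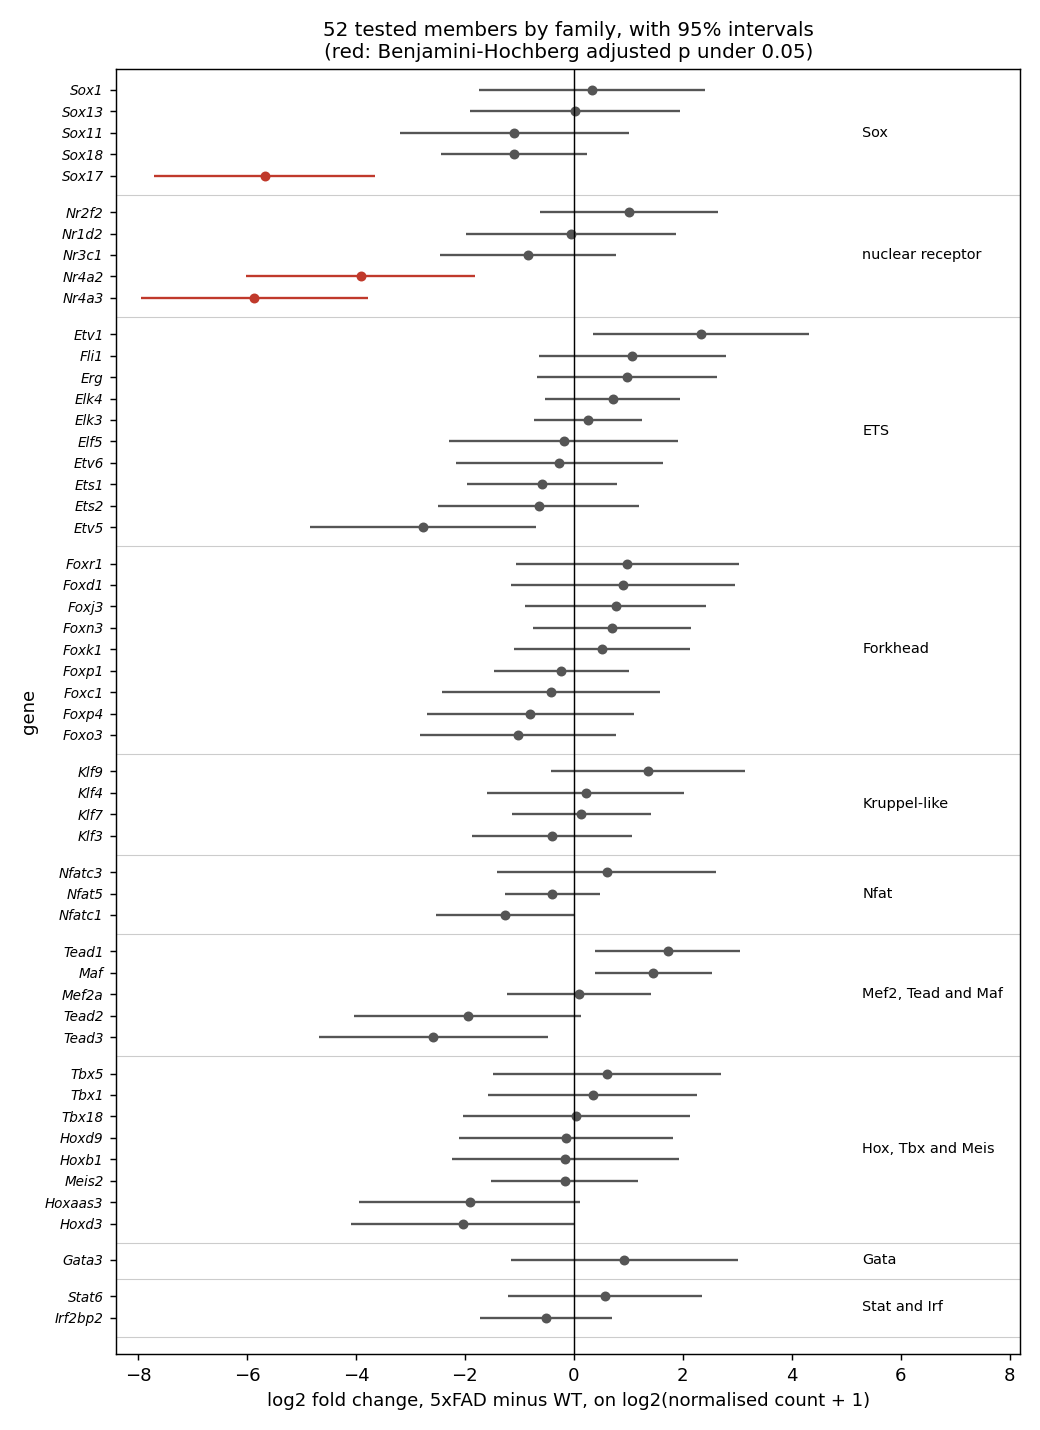
Log2 fold change (5xFAD minus WT, on log2(normalised count + 1)) of the 52 tested members by family, with 95% intervals as lines. The 3 called members (red) lie to the left, and among the other members the interval leaves out 0 for Etv1, Maf, Tead1, Etv5 and Tead3.

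Sox17, an HMG box factor best known for arterial endothelium and endoderm, fell out of detection in 5xFAD. It had 0 reads in each 5xFAD library and 133, 52.1 and 17.7 normalised counts in the WT libraries (chromosome 1, 4490931 to 4497354). The WT values rest on 162, 56 and 20 reads, and the mean was 67.6 ± 59.3 (SD, n = 3). The log2 fold change was -5.67 (limma adjusted p = 3e-06). Set against a floor of 3 reads over the 5xFAD group, Sox17 was at least 62.7-fold below the WT mean. This bound covers counting error in 5xFAD alone and leaves out the spread among the WT libraries. The bound was 32.3 without WT 1, and it was 35.5 without 5xFAD 1, where fewer libraries stand behind the floor. Of all listed genes, 54 lacked reads in all 3 5xFAD libraries and 11 in all 3 WT libraries, and Sox17 was the 1 member among them. A gene on the strand opposite Sox17, Gm37587, overlaps it, and whether reads were counted by strand is not given in the sources used here.

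Blood endothelial markers were measured beside Sox17. Of the 10 on the list 7 were tested, none passed, and none was at 0 in any library. Their summed level was 18463 to 28351 in 5xFAD and 14792 to 24698 in WT (exact permutation p = 0.7, two-sided, 3 against 3, where the smallest possible p is 0.1). Flt1 weighs most in this sum, with a mean of 12607 in 5xFAD and 8517 in WT, so the sum says little about the lower markers. Of the 7 log2 fold changes 3 were positive and 4 negative, with a median of -0.29. No list of arterial markers was set up, so arterial cells were not examined. The capillary gene Gpihbp1, picked after its values were seen, was the 1 of the 7 with all 5xFAD libraries below all WT libraries (log2 fold change -2.52; limma adjusted p = 0.150).

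Sox18, a lymphatic inducer of the same Sox subgroup as Sox17, was at 4455, 1893 and 3578 in the 5xFAD libraries and at 3152, 7578 and 12357 in the WT libraries. The groups overlapped through WT 1. The log2 fold change was -1.10 (95% interval -2.44 to 0.25; limma adjusted p = 0.452), and -0.65 without WT 3. Per kilobase of exon, Sox18 averaged 2042 normalised counts in 5xFAD and 4750.4 in WT, while Sox17 averaged 14.2 in WT, so Sox18 was by far the more abundant of the pair. Sox13 had a log2 fold change of 0.02, and the neural factors Sox1 and Sox11 had low levels, with log2 fold changes of 0.34 and -1.09.

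Endothelial Notch and guidance genes that work with these Sox factors were taken from a list, of which 10 of 17 were tested. The Notch ligand Jag2 fell, at 118, 371 and 138 in the 5xFAD libraries against 1566, 997 and 4623 in the WT libraries (log2 fold change -3.40, SE 0.99; limma adjusted p = 0.0132). Its call was lost without 5xFAD 1 (limma adjusted p = 0.0699), without 5xFAD 3 (0.0530) or without WT 3 (0.179), where the log2 fold change was -2.77. The other 9 did not pass, and the median of the 10 was -0.44, with 3 positive and 7 negative. Ephb4, a receptor gene added after its values were seen, also had all 5xFAD libraries below all WT libraries. It was at 1880, 2085 and 2157 in the 5xFAD libraries and at 14140, 6004 and 5879 in the WT libraries (log2 fold change -1.96; limma adjusted p = 0.0746).

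None of the 10 ETS genes passed. The pair Erg and Fli1, which maintain endothelial identity, both had positive log2 fold changes, 0.98 (95% interval -0.68 to 2.63) and 1.08 (-0.63 to 2.79). Erg was at 1386, 3980.4 and 3404 in the 5xFAD libraries and at 1681, 539 and 2718 in the WT libraries, which overlap. Fli1 was at 3156, 2587 and 1572 in the 5xFAD libraries and at 1242, 412 and 2665 in the WT libraries, which overlap too. WT 2 was the lowest library for both genes, and without it Erg was at 0.31 and Fli1 at 0.36, while without WT 3 they were at 1.48 and 1.71.

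Their neighbours on the chromosome are the ETS genes Ets2 and Ets1, which act in growth and vessel formation. Ets2 lies 115 kb from Erg on chromosome 16, and Ets1 lies 93.4 kb from Fli1 on chromosome 9. Their log2 fold changes were negative, -0.64 for Ets2 and -0.58 for Ets1. The log2 ratio of Erg to Ets2 averaged 1.75 ± 1.89 in 5xFAD and 0.13 ± 1.04 in WT, and that of Fli1 to Ets1 averaged -0.56 ± 0.45 in 5xFAD and -2.22 ± 1.71 in WT (SD, n = 3). These ratios were chosen after the values were seen, their groups overlap, and they carry no test.

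Etv1 and Etv5, effectors of growth factor signalling through ERK, spanned 11.1-fold (Etv1) and 12.8-fold (Etv5) among the 5xFAD libraries and pointed in different directions. Etv5 was at 19.1, 35.3 and 244 in the 5xFAD libraries and at 275, 816 and 249 in the WT libraries, a log2 fold change of -2.77 (SE 1.06; limma adjusted p = 0.103). The groups were separated only by the small gap between 5xFAD 3 and WT 3, and without 5xFAD 3 the gene passed (-3.83; limma adjusted p = 0.0329). Etv1 was at 432, 587 and 4789 in the 5xFAD libraries and at 131, 265 and 268 in the WT libraries, a log2 fold change of 2.34 (SE 1.01; limma adjusted p = 0.175), and it was at 1.26 without 5xFAD 3. Etv6, a repressor, was also high in that library, at 331, 304 and 3646 in the 5xFAD libraries and 650.0, 842 and 1167 in the WT libraries, with a log2 fold change of -0.27.

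Elk3, a ternary complex factor active in endothelium, varied little. It was at 18813, 9138 and 12503 in the 5xFAD libraries and at 12472, 9125 and 10823 in the WT libraries (log2 fold change 0.27, 95% interval -0.72 to 1.26). Its relative Elk4 had a log2 fold change of 0.71, and the epithelial factor Elf5 of -0.19. Of 19 ETS, homeodomain and bZIP partners outside the families, 7 were tested and none passed (median -0.77).

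**Figure D3:**
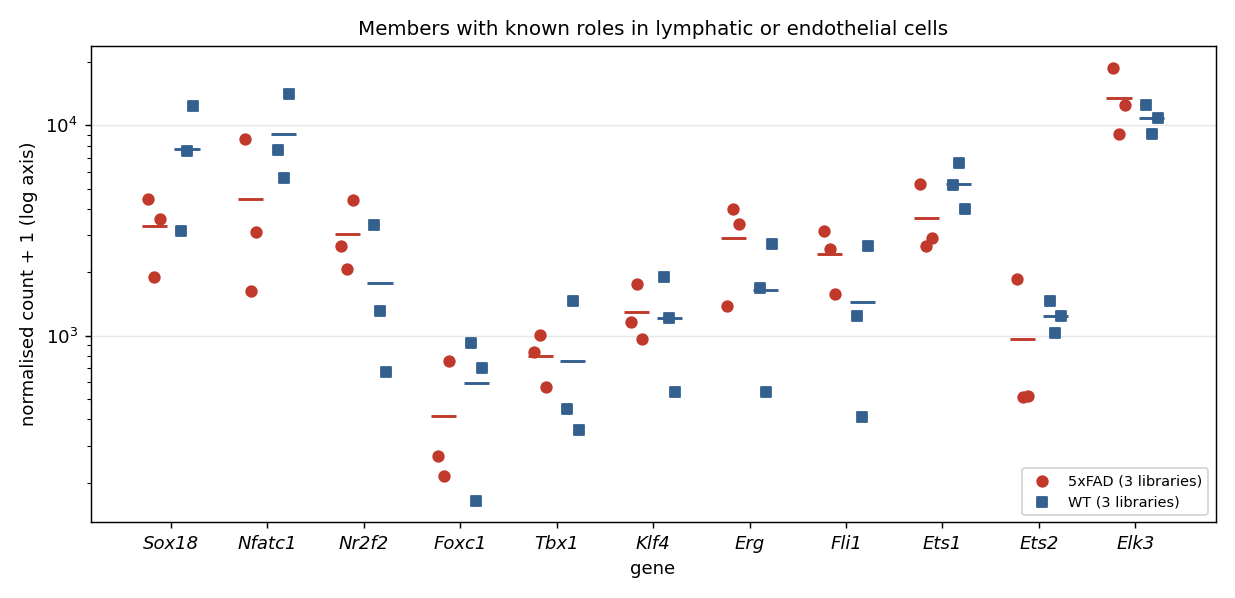
Normalised count + 1 (log axis) of 11 members with roles in lymphatic or endothelial cells, 3 5xFAD libraries (circles) left of 3 WT libraries (squares), with a bar at each group's mean. The groups overlap for each of the 11 genes, and Elk3 sits between 9125 and 18813 in all 6 libraries.

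The Tead factors bind DNA with Yap1 and its relatives, the coactivators that the Hippo kinases hold back. Tead1 was at 7446, 7158 and 11204 in the 5xFAD libraries and at 4295, 615 and 6260.4 in the WT libraries, without overlap. The log2 fold change was 1.72 (SE 0.68; limma adjusted p = 0.119), so it did not pass. Without WT 3 it passed (2.37; limma adjusted p = 0.0447), and without WT 2, the library with the lowest level, it was at 0.70.

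Tead2 and Tead3 had negative values. Tead2 averaged 75.4 ± 30.4 in 5xFAD and 376 ± 284 in WT (SD, n = 3; log2 fold change -1.95, limma adjusted p = 0.355). Tead3 was at 2.49, 46.2 and 49.1 in the 5xFAD libraries and at 74.8, 463 and 48.7 in the WT libraries (log2 fold change -2.58, limma adjusted p = 0.150), and it was at -1.31 without 5xFAD 1. Per kilobase, Tead1 made up 96.1%, 95.8% and 98.0% of the summed Tead1, Tead2 and Tead3 counts in the 5xFAD libraries, against 76.9%, 34.5% and 76.4% in the WT libraries. The groups did not overlap in this share, which was computed after the values were seen and has no test.

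Genes around Tead on a list were tested for 9 of 20 symbols, and none passed (median log2 fold change 1.23). Amotl1, a scaffold that binds Yap1, was at 6372, 11173 and 10095 in the 5xFAD libraries and at 3234, 2886 and 2286 in the WT libraries, without overlap (log2 fold change 1.69; limma adjusted p = 0.118). The groups were also apart, but in the opposite direction, for Mob1a, a cofactor of the Hippo kinases added here after its values were seen. Mob1a was at 408, 564 and 1688 in the 5xFAD libraries and at 1912, 1941 and 3363 in the WT libraries (log2 fold change -1.67; limma adjusted p = 0.351). The target Ctgf had a log2 fold change of 1.83, Yap1 of 1.48 and the Hippo kinase Lats2 of -0.29 (limma adjusted p 0.217, 0.414 and 0.918). Ctgf was at 1.09 with edgeR, 1.14 with DESeq2, 1.11 without WT 2 and 2.89 without WT 3 (limma adjusted p = 0.0501), and Yap1 was at 0.87 with edgeR, 0.91 with DESeq2, 0.61 without WT 1 and 2.43 without WT 2.

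Maf, a large bZIP factor, was at 9041, 12238 and 34146 in the 5xFAD libraries and at 6374, 4263 and 6642 in the WT libraries. All 5xFAD libraries were above all WT libraries, with 5xFAD 3 far above the rest. The log2 fold change was 1.46 (SE 0.55; limma adjusted p = 0.0899), 3.21-fold on the linear scale. It was called by edgeR on recovered reads (1.62; edgeR adjusted p = 0.0497) and without 5xFAD 1 (1.85; limma adjusted p = 0.0380), and it was at 0.90 without 5xFAD 3. Mef2a, a MADS box factor of muscle and vessels, was nearly constant in 5xFAD at 5003, 4966 and 4901, against 8996, 4079 and 2731 in the WT libraries (log2 fold change 0.09, below 0 under 5 other settings and without WT 2 or WT 3).

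**Figure D4:**
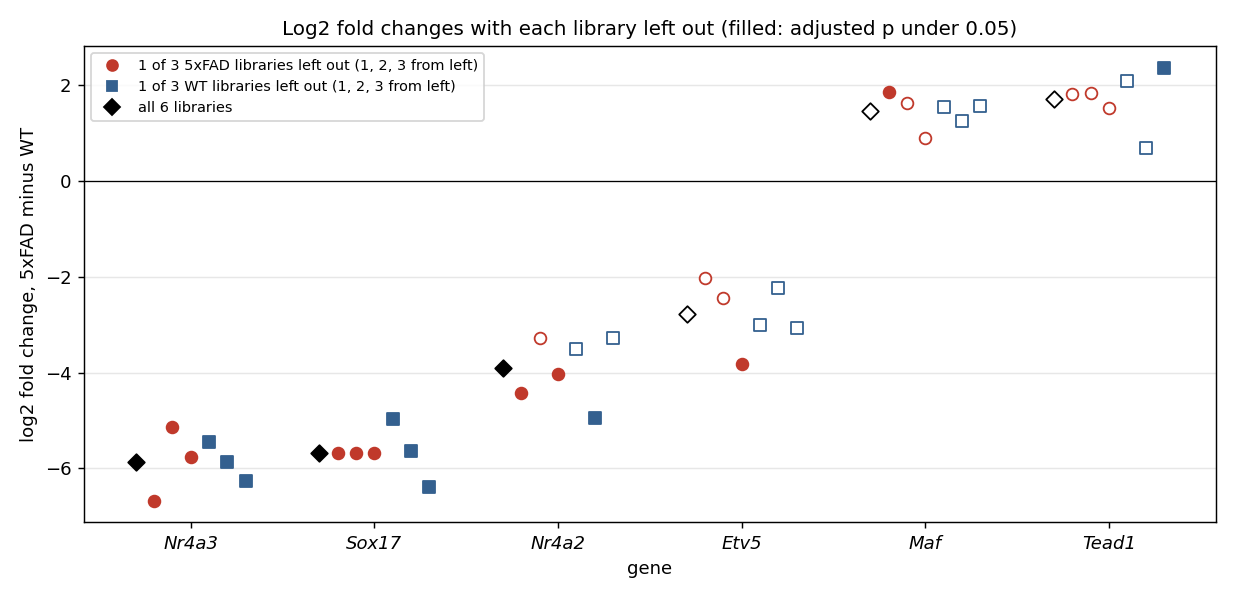
Log2 fold change (5xFAD minus WT) of 6 members with all 6 libraries (diamonds) and with 1 5xFAD library (circles) or 1 WT library (squares) left out, filled where the limma adjusted p is under 0.05. Nr4a3 and Sox17 stay filled throughout, while Nr4a2 turns open in 3 of 6 cases.

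No forkhead gene passed, and their log2 fold changes ran from -1.02 to 0.99. Foxc1, which acts in lymphatic valves and in the meninges, was at 266, 215 and 762 in the 5xFAD libraries and at 919, 164 and 702 in the WT libraries, with full overlap (log2 fold change -0.42, 95% interval -2.43 to 1.58). Foxo3, a factor of stress resistance held in check by Akt, was at 349, 1621 and 999 in the 5xFAD libraries and at 2885, 1142 and 1442 in the WT libraries (log2 fold change -1.02; limma adjusted p = 0.670), and it was at -0.40 without 5xFAD 1. Foxp1 was at 5499, 5584 and 5406 in the 5xFAD libraries, an SD of 88.8, and at 3571, 8797 and 8505 in the WT libraries (log2 fold change -0.23).

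The other forkhead genes were Foxd1, Foxj3, Foxk1, Foxn3 and Foxr1, with values from 0.52 to 0.99, and Foxp4 with -0.80. Foxk1 spanned 655 to 5527 within the 5xFAD libraries alone. Of 20 genes of the Foxo pathway 10 were tested and none passed (median -0.57).

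The Kruppel-like factors did not pass either. Klf4, which flow induces in endothelium, was at 1159, 1763 and 962 in the 5xFAD libraries and at 1907, 1209 and 539 in the WT libraries (log2 fold change 0.22, 95% interval -1.58 to 2.02). Klf9, a target of the glucocorticoid receptor, was at 1421, 1336 and 4255 in the 5xFAD libraries and at 637, 589.5 and 1262 in the WT libraries. These do not overlap, but the log2 fold change of 1.36 did not pass (SE 0.91; limma adjusted p = 0.496) and was 0.82 without 5xFAD 3.

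Klf7 varied widely in both groups. It was at 2909.6, 4169 and 14619 in the 5xFAD libraries and at 2381, 2651 and 20971 in the WT libraries, and its log2 fold change of 0.14 turned to -0.32 with edgeR. Klf3, a repressor, had a log2 fold change of -0.40. Of 17 flow response genes 8 were tested and none passed (median -0.28).

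Nfatc1, the calcineurin-activated factor of lymphatic valves, was at 8600.1, 1639 and 3124 in the 5xFAD libraries and at 7673, 5642 and 14041 in the WT libraries. The groups overlapped through 5xFAD 1, and the log2 fold change was -1.26 (95% interval -2.54 to 0.01; limma adjusted p = 0.313), with -1.90 without 5xFAD 1 and -0.71 without 5xFAD 2. Nfat5, which responds to osmotic stress, averaged 15809 ± 6320.4 in 5xFAD and 19626 ± 3924 in WT (SD, n = 3; log2 fold change -0.39). Nfatc3 had a log2 fold change of 0.61. Of 19 calcineurin and Nfat genes 10 were tested and none passed (median 0.50).

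Hox, Tbx and Meis genes set position along the body and in the heart and limbs, and none of the 8 tested passed. Hoxd3 was at 54.7, 98.5 and 313 in the 5xFAD libraries and at 234, 229.7 and 2220.4 in the WT libraries (log2 fold change -2.04, 95% interval -4.09 to 0.01), and it was at -0.95 without WT 3. It overlaps Hoxd4 on its own strand, and reads of these genes may not be separable. Hoxd9, 11.7 kb away in the same cluster, was at 106, 508 and 2431 in the 5xFAD libraries and at 584, 824 and 368 in the WT libraries (log2 fold change -0.14).

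Hoxaas3 was near the limit of detection at 2.49, 14.6 and 0 in the 5xFAD libraries and 46.8, 6.51 and 7.08 in the WT libraries (log2 fold change -1.91, limma adjusted p = 0.351). It overlaps Hoxa3, Hoxa4, Hoxa5, Hoxa6 and Hoxa7 on the opposite strand. Tbx1, a factor of lymphatic development, was at 835, 1002 and 572 in the 5xFAD libraries and at 447, 1469 and 356 in the WT libraries (log2 fold change 0.34). Meis2 averaged 4628 ± 2124 in 5xFAD and 5853 ± 4138 in WT (log2 fold change -0.16). Hoxb1, Tbx5 and Tbx18, the last known in mural cells, stayed under 100 in every library, with log2 fold changes of -0.16, 0.61 and 0.05.

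Gata3, a zinc finger factor of lymphocytes and epithelia, was low at 29.0, 35.3 and 59.7 in the 5xFAD libraries and 11.5, 33.5 and 21.2 in the WT libraries (log2 fold change 0.93, 95% interval -1.16 to 3.02). Stat6, which carries interleukin-4 signals, was at 830.2, 3383 and 1280.3 in the 5xFAD libraries and at 2474, 365 and 1219.9 in the WT libraries (log2 fold change 0.57), and it was at -0.18 without WT 2. The groups overlapped, with 5xFAD 2 the highest and WT 2 the lowest library. Irf2bp2 was at 3774, 5301 and 8125 in the 5xFAD libraries and at 12932, 9090.5 and 3943 in the WT libraries (log2 fold change -0.50). Of 36 Jak kinases, receptors and targets of Stat and Irf, 15 were tested and none passed (median -0.13). Among 30 other transcription factors of endothelium, Prox1 included, 15 were tested and none passed (median 0.28).

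Across members, the median absolute log2 fold change was smaller than the median SE of these changes, which was 0.954 (0.996 for all genes tested). The median SD of log2 values within a group was 0.82 in 5xFAD and 0.90 in WT for members, and 1.03 in 5xFAD and 0.95 in WT for all genes tested. The median absolute log2 fold change was 0.71 for members and 0.79 for all genes. Of the 52 members, 11 had their highest value in 5xFAD 3, 9 in 5xFAD 1 and 3 in 5xFAD 2, against 11 in WT 3, 10 in WT 1 and 8 in WT 2. The lowest value was in WT 2 for 12 members (23.1%), more than in any other library. Over all genes tested, WT 2 was lowest for 15.3%, and 5xFAD 3 was lowest most often, for 20.4%. The highest value over all genes was in 5xFAD 3 for 22.4% and in WT 3 for 19.5%, against 21.2% of members in each.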

How the data were processed

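RNA from sorted cells was extracted with the PicoPure kit and linearly amplified, per the labels' protocols. The authors deposited normalized signal values, in which each library's gene counts are scaled by 1 number. Per the submitters' processing notes, mm10, DESeq2, Salmon, Trimmomatic and FastQC were used, and their settings are not given in the sources used here. Whole reads were recovered by dividing each column by its smallest value above 0 (100% of values whole within 1e-06). The floor for 0 reads covers counting error alone.

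Testing used genes of mean 10 or more, on log2(value + 1) by limma 3.58.1 in R 4.3.3, with the prior variance following mean level. Its prior had infinite degrees of freedom, so each SE is the spread typical of that level. Fold changes on this scale understate those of low genes. edgeR 4.0.16 and DESeq2 1.42.0 on recovered reads, other scalings, filters, pseudocounts and left-out libraries were alternatives. Scripts were tested on simulated counts. Named members were those called, the 8 largest per direction without overlap, 2 per family and the 20 genes found of a list of 34. The other members are given briefly so that all are accounted for. Pathway genes named were those called, and up to 4 by level in the list around Tead and in that of immediate early genes. Others, such as Ephb4 and Flt1, were added after their values were seen. Most other genes of the lists go unnamed, also some whose groups did not overlap. Members and lists were chosen with earlier results of these data known. Positions are from GENCODE M21, GRCm38, the assembly of mm10. 25 members overlap a gene on the opposite strand.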

Additional observations from a re-analysis of the deposited data

How the results depend on the processing

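The count of 3 lower members was 2 with a mean of at least 50, where Sox17 was not tested, and 2 to 4 with single libraries left out. It was 3 under each of the other alternatives. The count of 0 higher members was 1 with edgeR (Maf) and 0 to 1 with single libraries left out, and the cause was not tested. The members' median log2 fold change of -0.10 stayed between -0.22 and 0.05. The median over all genes, -0.02, became -0.14 when libraries were scaled to 1 total. With a pseudocount of 10, Sox17 was at -2.65 and still called.

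Of 40 named genes tested, 29 kept their sign under every alternative, and the 11 others were not called under any. Klf7 was at -0.32 with edgeR and -0.26 with DESeq2. Mef2a was at -0.032 with library weights, -0.022 with quantile normalization, -0.027 scaled to the same total, -0.13 with edgeR and -0.090 with DESeq2. Meis2 was at 0.048 with library weights. With single libraries left out, log2 fold changes ranged from -0.55 to 1.16 for Klf7, -0.29 to 0.57 for Mef2a, -0.83 to 0.39 for Meis2, -0.28 to 0.63 for Klf4, -1.19 to 0.054 for Foxc1, -0.18 to 1.20 for Stat6, -0.052 to 0.97 for Tbx1, -0.0041 to 0.52 for Elk3, -0.62 to 0.0019 for Nfat5, -0.95 to 0.33 for Lats2 and -0.59 to 0.023 for Egr1.

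With the replicate block 0 members were higher and 3 lower. Deviations from the group means correlated at 0.00247, -0.0157 and -0.0126 between libraries of 1 number, and for 0 of 6 was that the closest library. No source ties a number to a batch.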
